A study of Mus musculus with 4 samples.

Results

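The genes described here are 10 transcription factors grouped under gastric and intestinal identity: Sox2, Sox21, Gata4, Gata6, Foxa2, Hnf4a, Pdx1, Cdx2, Foxq1 and Spdef. They were chosen by name, and all 10 were found among the 52125 rows of the expression table. The study sequenced total RNA of the corpus, the main glandular region of the mouse stomach, in wild-type mice of the strain C57BL/6, 6 to 8 weeks old, with 1 mouse per library. Vehicle comprised 2 mice and HDT comprised 2 mice, all taken at 48 hr. HDT mice had received 5 mg of HDT per 20 g of body weight once, by intraperitoneal injection, to damage the gastric lining. The labels do not spell HDT out. It usually stands for high-dose tamoxifen, an estrogen receptor ligand that injures gastric parietal cells at high dose. Control mice are called vehicle in the sample titles and untreated in the protocol text, and which of these they were cannot be told here. The title of the series concerns Iqgap3 and Ras in the proliferation of corpus stem cells.

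These factors bind DNA, and most of them help to fix which organ an endodermal cell belongs to. SOX2 marks foregut and stomach, CDX2 marks intestine, and each is known to oppose the other's programme. GATA, FOXA and HNF4 proteins act in both organs, PDX1 marks the antrum and duodenum, and FOXQ1 and SPDEF act in mucus-secreting cells. Loss of SOX2 with gain of CDX2 is the textbook picture of intestinal metaplasia, the replacement of gastric by intestinal cells.

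At 48 hr after HDT the factors Sox2, Sox21, Gata6 and Spdef rose 1.37-fold to 1.55-fold, and no gain of the intestinal factor Cdx2 was detectable at this depth. Foxa2 fell to 0.870 of its vehicle level, a call lost under 9 of 17 other settings and reversed under 1. Gata4, Hnf4a, Pdx1 and Foxq1 were not called with TMM. Of the 9 members with enough reads to test, 4 were higher and 1 was lower at a limma adjusted p under 0.05. Among all 18285 genes tested, 18.4% were higher and 19.3% were lower, 37.7% in all. The median log2 fold change was 0.46 over the 9 tested members, which is the value of Gata6, and −0.0015 over all tested genes. Without vehicle replicate 1 the members' median was 0.18, and there Pdx1, a gene of few reads, went from 0.70 to 0.09. Over the 17 other settings the lowest values of Sox2, Sox21, Gata6 and Spdef were 0.44, 0.41, 0.30 and 0.47. HDT and vehicle libraries did not overlap for 8 of the 9 tested members, as for 70.8% of all tested genes. HDT lay above vehicle for 6 of them and below for 2, against 35.3% and 35.5% of all tested genes. Levels are in CPM, a gene's reads relative to the library size after TMM, which is a scaling that assumes most genes do not change. All tissue of the corpus was sequenced together, so more or fewer cells of a type and more or less RNA per cell cannot be told apart.

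**Figure D1:**
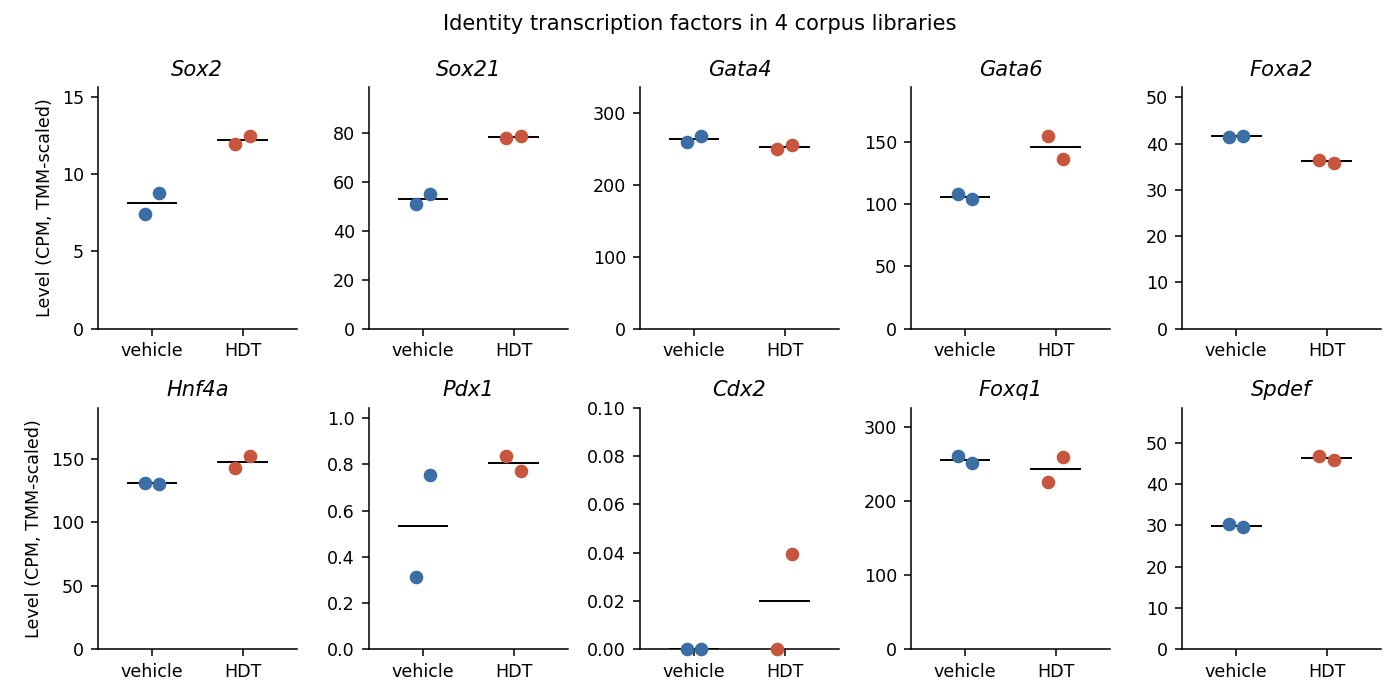
CPM (TMM-scaled, linear axes from 0) of each of the 10 factors in the 2 vehicle and 2 HDT libraries, with 1 point per mouse and a line at the group mean. Sox2, Sox21, Gata6 and Spdef were higher in both HDT libraries and Foxa2 lower, while Cdx2 was at 0 in 3 libraries and at 2 reads in the other.

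Direction depended on the scaling for some members. Depth was 41536686 to 42674985 reads per library, and the 20 most abundant genes took 40.1% and 42.2% of reads in vehicle but 22.1% and 21.4% in HDT. TMM factors were 0.848 and 0.818 in vehicle and 1.22 and 1.18 in HDT. The values at the scaling as deposited moved the median log2 fold change of all genes to 0.526. Changes below are relative to the TMM median unless the scaling is named. At the deposited scaling all 9 tested members were called higher, with a median of 0.99, beside 62.8% of all tested genes higher and 5.46% lower. A scaling to 10 genes of gastric epithelium moved the median of all genes to −0.16 and called 4 members higher and 3 lower, beside 9.35% and 26.3% of all tested genes.

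**Figure D2:**
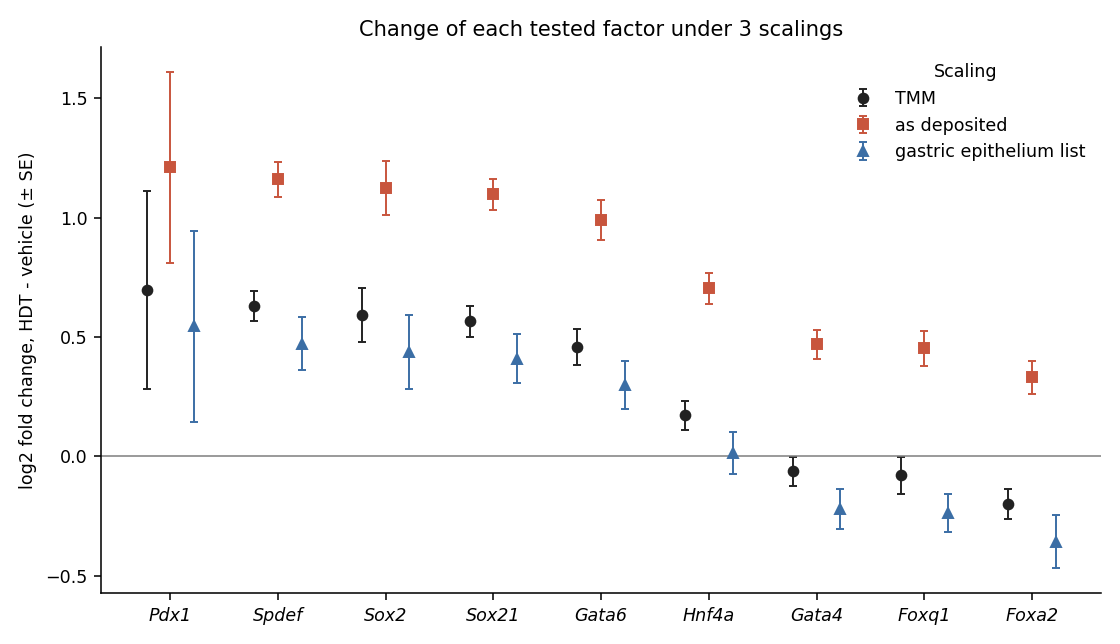
Log2 fold change of HDT over vehicle (± SE) of the 9 tested factors under TMM, the deposited scaling and a scaling to the gastric epithelium list. Sox2, Sox21, Gata6 and Spdef were above 0 under all 3, whereas Gata4, Foxa2 and Foxq1 were below 0 under TMM and the epithelium scaling and above 0 at the deposited scaling.

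The windows before the annotated starts of the factors that the results turn on are shown first, to place the genes and their upstream sequence. RefSeq on GRCm38.p6 supplied such windows for 7 of the 10 members, each of 250 bases upstream of a start. Sequences run 5′ to 3′ along the gene's strand, exon bases are left out, and capitals mark a motif match. The Sox2 window lies at chr3:34649745-34649994 (plus strand), that of Sox21 at chr14:118237031-118237150 (minus strand), that of Spdef at chr17:27728956-27729201 (minus strand), and the innermost of the 3 Foxa2 windows, within an intron of the protein-coding transcripts, at chr2:148045465-148045714 (minus strand).
Sox2: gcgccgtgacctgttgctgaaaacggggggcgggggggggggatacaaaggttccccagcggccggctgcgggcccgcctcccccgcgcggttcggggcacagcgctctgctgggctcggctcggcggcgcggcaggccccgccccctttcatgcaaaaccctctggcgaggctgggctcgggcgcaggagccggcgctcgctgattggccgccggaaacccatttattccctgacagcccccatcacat
Sox21: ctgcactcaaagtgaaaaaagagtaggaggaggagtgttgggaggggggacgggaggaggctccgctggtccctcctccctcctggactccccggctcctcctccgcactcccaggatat
Spdef: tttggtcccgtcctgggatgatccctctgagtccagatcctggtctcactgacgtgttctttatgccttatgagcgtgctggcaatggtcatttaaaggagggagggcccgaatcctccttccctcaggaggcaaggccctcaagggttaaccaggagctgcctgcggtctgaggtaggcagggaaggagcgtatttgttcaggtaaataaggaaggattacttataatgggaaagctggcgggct
Foxa2: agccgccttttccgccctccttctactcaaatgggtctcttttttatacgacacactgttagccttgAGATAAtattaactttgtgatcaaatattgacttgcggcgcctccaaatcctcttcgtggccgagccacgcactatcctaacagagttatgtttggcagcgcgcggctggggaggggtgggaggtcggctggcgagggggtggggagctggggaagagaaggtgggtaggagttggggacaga

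Both strands of each window were searched for 7 motifs. For zinc-finger factors of the Gata family the letters were AGATAA, for SOX proteins ACAATG, and for forkhead proteins TGTTTAC. The remaining searches used CAAAGTCCA for HNF4, TTTATNG for CDX, TAATTA for PDX1 and CCGGAT for SPDEF. The innermost Foxa2 window held AGATAA 183 bases before its start, and the other Foxa2 windows held none of the 7 motifs. AGATAA was in 9.99% of the 32851 mouse windows searched, a share per single window. No motif of the 7 was found in the windows of Sox2, Sox21, Pdx1 and Spdef, which says only that these letters are not there. Hnf4a held AGATAA at −52 in its upstream window and TAATTA at −165 in its internal one, and TAATTA was in 4.84% of all windows. Cdx2 held the FOX motif, read as GTAAACA, at −40, and this motif was in 3.17% of all windows. The other shares were 10.7% for the SOX motif, 0.384% for HNF4, 9.81% for CDX and 4.94% for SPDEF. A match is a description of letters, not a bound site.

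Sox2 (chr3:34650405-34652461, plus strand), the SOX factor that maintains foregut and stomach identity, was at 7.44 and 8.80 CPM in vehicle and 11.9 and 12.5 CPM in HDT. Both HDT libraries lay above both vehicle libraries. Sox2 rose from 8.12 ± 0.959 to 12.2 ± 0.399 CPM (SD, n = 2), a log2 fold change of 0.59 (SE 0.113, limma adjusted p = 0.00463). The long RNA gene Sox2ot spans Sox2 on the same strand and shares no exon base with it. Sox2ot had 7 and 15 reads in vehicle and 11 and 5 in HDT, and its log2 fold change of −0.92 was not called (limma adjusted p = 0.241).

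Sox21 (chr14:118233232-118237030, minus strand), a SOX repressor of the same subfamily, was at 50.8 and 55.2 CPM in vehicle and 77.8 and 78.9 CPM in HDT. Again the groups did not overlap. Sox21 rose from 52.97 ± 3.14 to 78.3 ± 0.781 CPM (SD, n = 2), a log2 fold change of 0.57 (SE 0.0663, limma adjusted p = 0.000416). Within a library, reads of Sox21 per read of Sox2 were 6.82 and 6.27 in vehicle and 6.52 and 6.31 in HDT, so these ratios overlapped. The lincRNA gene Gm4675 runs on the opposite strand and shares 713 exon bases with Sox21. Gm4675 was at 9.66 and 9.55 CPM in vehicle and 13.2 and 13.8 CPM in HDT, a log2 fold change of 0.49 (limma adjusted p = 0.00410). The strand setting of the counting is not given in the sources used here, so reads in the shared bases of these and the other overlapping genes cannot be told apart.

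Sox2 and Sox21 are also known from squamous epithelium or from neural and glial cells. Squamous markers were near 0: the 11 genes summed to 2.18 to 2.81 CPM in vehicle and 3.03 to 3.57 CPM in HDT, and limma called none of the 7 tested. Without vehicle replicate 2 it called 2 of these higher and 1 lower, and without vehicle replicate 1 it called 1 higher. Trp63, the defining factor of basal squamous cells and named here after its values were seen, had 1 and 0 reads in vehicle and 0 and 1 in HDT. Of the squamous keratins, Krt5 had 6 and 13 reads in vehicle and 28 and 24 in HDT, and Krt14 had 24 and 10 reads in vehicle and 10 and 10 in HDT. Of 8 markers of enteric glia, 1 was higher (Gfap, log2 fold change 0.76, a call lost without HDT replicate 2) and 1 was lower (Cdh19). No glial gene was called lower without vehicle replicate 1 or HDT replicate 1, at the deposited scaling, with the replicate block, with DESeq2 or in limma without trend. The summed level of these glial markers was 172 to 176 CPM in vehicle and 185 to 199 CPM in HDT, most of it from Erbb3, which epithelium also expresses. Without Erbb3, singled out after its values were seen, the other 7 summed to 17.5 and 13.4 CPM in vehicle and 14.3 and 14.1 CPM in HDT, and these overlapped. Sox10, the defining glial factor, was at 3.29 and 2.26 CPM in vehicle and 2.39 and 2.10 CPM in HDT. The part of these cells in the Sox2 and Sox21 values was not tested.

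Gata4 (chr14:63198922-63271692, minus strand), a zinc-finger factor needed for the columnar epithelium of the stomach, was at 259 and 269 CPM in vehicle and 250.4 and 255 CPM in HDT. Both HDT values lay just under both vehicle values. Gata4 had a log2 fold change of −0.06 (SE 0.0602, limma adjusted p = 0.451) and was not called. At the scaling as deposited it was 0.47 and called higher (limma adjusted p = 8.30e-05), and on the epithelium scaling −0.22 and called lower (limma adjusted p = 0.0469).

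Gata6, its close relative with roles in gastric and intestinal epithelium, was at 108 and 104 CPM in vehicle and 155 and 136 CPM in HDT. The HDT libraries were both higher, and they lay further apart than the vehicle pair. Gata6 rose from 106 ± 2.87 to 146 ± 13.2 CPM (SD, n = 2), a log2 fold change of 0.46 (SE 0.0752, limma adjusted p = 0.00221). Reads of Gata6 per read of Gata4, a ratio that no scaling changes, were 0.416 and 0.386 in vehicle and 0.619 and 0.534 in HDT. With 2 mice a group, an exact two-sided permutation test of any such ratio cannot give a p below 0.333, so the ratios are given without a test. The gene 1010001N08Rik, on the opposite strand with 93 exon bases shared, went from 14.8 and 15.8 CPM to 10.2 and 8.18 CPM (log2 fold change −0.74, limma adjusted p = 0.00218). That call was lost at the deposited scaling, where its log2 fold change was −0.21 (limma adjusted p = 0.162). Gata6 is also known from mesenchyme, whose 8 markers summed to 491 to 494 CPM in vehicle and 836 to 967 CPM in HDT. Most of this rise was that of Col1a1, at 197 and 200 CPM in vehicle and 515 and 624 CPM in HDT. The median log2 fold change of the 7 tested markers was 0.04. Col1a1 and Pdgfra rose by 1.51 and 0.96 (log2), and 5 tested genes, the mesenchymal factors Barx1 and Foxf1 included, were not called. The part of mesenchyme in the Gata6 value was not tested. Gata5, the remaining endodermal GATA factor and named after its values were seen, was at 54.1 and 48.8 CPM in vehicle and 56.2 and 60.55 CPM in HDT (limma adjusted p = 0.0914).

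Foxa2 (chr2:148042877-148046969, minus strand), a forkhead pioneer factor of endoderm, was at 41.4 and 41.7 CPM in vehicle and 36.5 and 35.7 CPM in HDT. Both HDT libraries were lower. Foxa2 fell from 41.6 ± 0.239 to 36.1 ± 0.559 CPM (SD, n = 2), a log2 fold change of −0.20 (SE 0.0627, limma adjusted p = 0.0368). The call was lost under 9 of 17 other settings, among them leaving out any single library (limma adjusted p = 0.0699 to 0.156). At the deposited scaling Foxa2 was called higher, by 0.33 (limma adjusted p = 0.00199).

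Foxa1, the sister factor from the list of other foregut factors, went the other way, from 120.2 and 132 CPM to 239 and 227 CPM. Foxa1 rose by 0.89 on the log2 scale (limma adjusted p = 5.63e-05). Reads of Foxa1 per read of Foxa2 were 2.91 and 3.16 in vehicle and 6.54 and 6.36 in HDT, a 2.13-fold higher ratio with no overlap. Foxa3, named after its values were seen, was at 56.4 and 48.3 CPM in vehicle and 44.3 and 52.8 CPM in HDT, and these overlapped.

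Hnf4a (chr2:163506808-163572910, plus strand), a nuclear receptor of stomach, intestine and liver epithelium, was at 131 and 130.4 CPM in vehicle and 143 and 152 CPM in HDT. Both HDT libraries were higher by a small margin. Hnf4a had a log2 fold change of 0.17 (SE 0.0618, limma adjusted p = 0.0616), short of the threshold. It was called without HDT replicate 1 (0.22, limma adjusted p = 0.0275), with upper-quartile scaling (0.21, limma adjusted p = 0.0292) and at the deposited scaling (0.70, limma adjusted p = 8.92e-06). Relative to gastric epithelium it was level, at 0.01 (limma adjusted p = 0.921). Its antisense gene Hnf4aos, which shares no exon base with it, had 1 or 2 reads in every library, and the small nuclear RNA gene Gm25881 within it had 0.

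Pdx1 (chr5:147269959-147275848, plus strand), the factor of antrum, duodenum and pancreas, had 11 and 26 reads in vehicle and 43 and 39 reads in HDT. In CPM these were 0.312 and 0.755 against 0.836 and 0.773, so the groups were separated by a narrow gap between vehicle replicate 2 and HDT replicate 2. Pdx1 had a log2 fold change of 0.70 (SE 0.416, limma adjusted p = 0.228) and was not called. Pooled over mice, 37 against 82 reads gave a ratio of 1.51, with a 95% interval of 1.02 to 2.30 that covers counting error only. Without vehicle replicate 1 the log2 fold change was 0.09 (limma adjusted p = 0.880), and without vehicle replicate 2 it was 1.31 and called (limma adjusted p = 0.0218). The antisense gene Plut had 4 and 5 reads in vehicle and 7 and 7 reads in HDT and shares no exon base with Pdx1.

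Markers of neighbouring organs that express Pdx1 varied by library. Gast, the gastrin gene of antral G cells, had 0 reads in both vehicle libraries and 2 and 1 in HDT. The antral factor Nkx6-3 had 18 and 1 reads in vehicle and 1 and 3 in HDT. A set of 10 pancreatic enzyme genes summed to 16.6 CPM in vehicle replicate 1 and 198 CPM in vehicle replicate 2, against 8.32 and 7.09 CPM in HDT. Vehicle replicate 2 had the most enzyme RNA and, of the vehicle pair, more Pdx1 reads. Both HDT libraries had less enzyme RNA than either vehicle library but more Pdx1 reads, at 43 and 39. Ptf1a, a pancreatic acinar factor, was instead higher in HDT, at 1.19 and 1.02 CPM in vehicle and 4.45 and 2.81 CPM in HDT (limma adjusted p = 0.00142). Their part in the Pdx1 value was not tested.

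Cdx2 (chr5:147300805-147307270, minus strand), the master regulator of intestine, had 0 reads in both vehicle libraries, 0 in HDT replicate 1 and 2 in HDT replicate 2. It had too few reads to test. A count of 0 allows up to 3 reads, or 0.0852 and 0.0871 CPM in the vehicle libraries and 0.0583 CPM in HDT replicate 1, for counting error only. The 2 reads of HDT replicate 2 are 0.0396 CPM, and with 0 reads in both vehicle libraries no fold is given. Cdx1, the related intestinal factor, had 1 and 1 reads in vehicle and 0 and 1 in HDT. Some other intestinal genes, picked after their values were seen, also had more reads in HDT replicate 2 than in the other libraries. Of the 32 intestinal markers listed, 12 had their highest CPM in HDT replicate 2. There 22 were higher than in HDT replicate 1 while 9 were lower, among them Lct, Anpep, Apoa4 and Fabp1. The same counts over all genes are not given here, so those of the markers have no baseline. The brush-border enzyme gene Sis had 13 reads in HDT replicate 2 and 0 in each of the other 3 libraries. Cdh17, an intestinal cadherin, had 20 reads there, 2 in each vehicle library and 0 in HDT replicate 1. Alpi, the intestinal alkaline phosphatase, had 89 reads there against 12 to 17 in the others. Whether these reads and those of Cdx2 share a source was not tested.

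Foxq1 (chr13:31556134-31560976, plus strand), a forkhead factor required for Muc5ac in gastric surface mucous cells, was at 260.2 and 251 CPM in vehicle and 226 and 259 CPM in HDT. HDT replicate 2 lay between the vehicle libraries, so the groups overlapped. Foxq1 had a log2 fold change of −0.08 (SE 0.0774, limma adjusted p = 0.452). Without HDT replicate 1 it was 0.02, at the deposited scaling 0.45 and called higher (limma adjusted p = 0.000406), and on the epithelium scaling −0.24 and called lower (limma adjusted p = 0.0264). The protein-coding gene A530084C06Rik covers 3200 of its 4843 exon bases on the opposite strand. A530084C06Rik was at 91.9 and 93.4 CPM in vehicle and 81.6 and 90.3 CPM in HDT (limma adjusted p = 0.244).

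Spdef (chr17:27714352-27728955, minus strand), an ETS factor of mucus-secreting cells, was at 30.3 and 29.5 CPM in vehicle and 46.8 and 45.8 CPM in HDT. The groups were well apart and the replicates close. Spdef rose from 29.9 ± 0.551 to 46.3 ± 0.659 CPM (SD, n = 2), a log2 fold change of 0.63 (SE 0.0637, limma adjusted p = 0.000199). Reads of Spdef per read of Foxq1 were 0.116 and 0.118 in vehicle and 0.207 and 0.177 in HDT, so these mucous factors changed unequally. Sox2, Sox21, Gata6 and Spdef were called higher under all 17 other settings, with limma, edgeR or DESeq2 adjusted p of at most 0.0490.

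**Figure D3:**
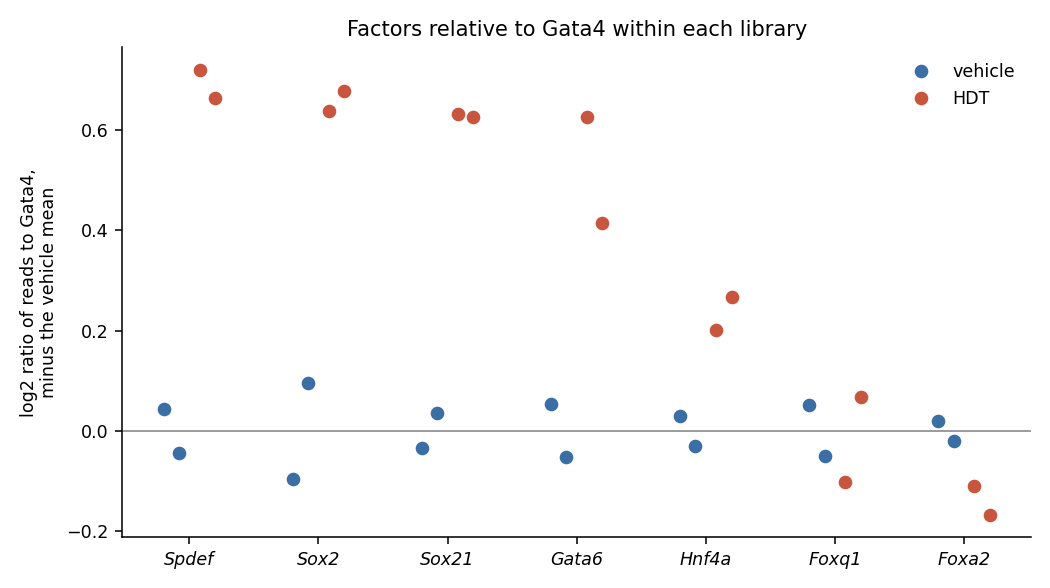
Log2 of the reads of each factor per read of Gata4 in the same library, minus the vehicle mean, with 1 point per mouse. The ratios of Sox2, Sox21, Gata6, Hnf4a and Spdef were higher in both HDT libraries, that of Foxa2 was lower in both, and that of Foxq1 overlapped.

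Ratios to Gata4 within a library do not depend on any scaling, although they move with Gata4 itself. Sox2 per read of Gata4 was 0.0287 and 0.0328 in vehicle and 0.0477 and 0.0490 in HDT. Spdef per read of Gata4 was 0.117 and 0.110 in vehicle and 0.187 and 0.180 in HDT. These ratios were 1.58 and 1.62 times as high in HDT, with no overlap. Foxa2 per read of Gata4 was 0.160 and 0.155 in vehicle and 0.146 and 0.140 in HDT, 0.908 times as high. Foxq1 per read of Gata4 was 1.00 and 0.935 in vehicle and 0.902 and 1.01 in HDT.

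Compared per length, as CPM per kb of exon, Gata4 stood highest in both groups, at 67.6 ± 1.68 in vehicle and 64.7 ± 0.853 in HDT (SD, n = 2). Foxq1 followed at 52.8 ± 1.34 and 50.04 ± 4.78 CPM per kb, and Hnf4a at 27.1 ± 0.126 and 30.5 ± 1.36 CPM per kb. In vehicle the order went on with Foxa2 (17.5 ± 0.101), Gata6 (16.3 ± 0.440), Sox21 (13.9 ± 0.826), Spdef (12.98 ± 0.239) and Sox2 (3.95 ± 0.466), all in CPM per kb. Foxa2 ranked 4 there and 7 in HDT, at 15.2 ± 0.236 CPM per kb, below Gata6 (22.4 ± 2.03), Sox21 (20.6 ± 0.206) and Spdef (20.1 ± 0.286). Gata6 and Sox21 in HDT differed by less than the larger SD, while in vehicle Sox21 and Spdef differed by 0.965 CPM per kb with a larger SD of 0.826. Sox2 was at 5.94 ± 0.194 CPM per kb in HDT. Pdx1 stood at 0.247 ± 0.145 and 0.373 ± 0.0208 CPM per kb, and Cdx2 was last.

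Other regulators of the same programmes were counted from lists chosen by function. Of 16 tested factors of stomach and foregut, 5 were higher, none was lower, and the median log2 fold change was 0.19. That median was 0.11 without vehicle replicate 2, 0.12 without HDT replicate 2 and 0.03 on the epithelium scaling. The largest rises were those of Sox9 (1.20, limma adjusted p = 0.000205), a progenitor factor, Foxa1, and Ehf (0.63, limma adjusted p = 0.000593), an epithelial ETS factor. Klf5 and Tead1, named after their values were seen, made up the rest, at 0.47 and 0.31. Of 14 tested gastric lineage factors 1 rose and 3 fell, and their median was −0.42. Isl1, known from endocrine cells and gastric muscle, rose by 1.31 (limma adjusted p = 2.02e-05). Esrrb, an estrogen-related receptor, went from 12.4 and 13.4 CPM to 1.30 and 1.27 CPM (log2 fold change −3.31, limma adjusted p = 3.41e-06). The more abundant Esrrg of the same list, named after its values were seen, was at 172 and 189 CPM in vehicle and 153 and 107 CPM in HDT. Esrrg was not called (−0.49, limma adjusted p = 0.123). Xbp1, the secretory factor of chief cells, fell by 0.90 (limma adjusted p = 3.99e-05), and Creb3l1, named after its values were seen, fell by 0.32. Of 6 tested SOX genes outside the members, Sox7 and Sox13 were higher, and both calls were lost without vehicle replicate 1 and on the epithelium scaling, while 1 was kept without vehicle replicate 2 and 1 without HDT replicate 1.

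Intestinal markers moved in both directions, and 3 of 9 tested intestinal factors were called higher with TMM, beside 18.4% of all tested genes. Ascl2, a stem cell factor, had 8 and 15 reads in vehicle and 233 and 226 in HDT. Vdr, the vitamin D receptor, rose by 1.47 (limma adjusted p = 0.00156) and Tcf7l2 of the Wnt pathway by 0.30 (limma adjusted p = 0.0155). None of the 9 was lower with TMM, whereas the epithelium scaling called 2 higher and 2 lower. Cdx1, Cdx4, Isx, Gfi1 and Atoh1 of the same list had too few reads to test. Atoh1, the secretory cell factor, was at 0 reads in all 4 libraries. Of 25 tested intestinal markers, 4 rose and 4 fell, and their median log2 fold change was 0.04. The lipoprotein gene Apoa4 went from 129.6 and 128 CPM to 7.68 and 7.15 CPM (log2 fold change −4.11, limma adjusted p = 7.44e-08). Lct, the lactase gene, went from 39 and 11 reads to 328 and 252 reads (3.19, limma adjusted p = 0.0284), and this call was lost without either HDT library. Guca2b, the uroguanylin gene, went from 9 and 6 reads to 82 and 117 reads (3.06, limma adjusted p = 0.000270). The other calls, named after their values were seen, were the brush-border genes Vil1 (0.67) and Anpep (1.00), which were higher, and Fabp1 (−2.86), Spink4 (−2.12) and Cdhr5 (−0.56), which were lower. Muc2, the intestinal goblet mucin, also named after its values were seen, had 10 and 15 reads in vehicle and 13 and 19 in HDT.

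Mucous genes moved in both directions beside Foxq1 and Spdef. Of 18 tested, 5 were higher and 8 were lower, with a median log2 fold change of −0.30. The neck cell genes Muc6 and Tff2 went from 286 and 281 to 88.4 and 71.4 CPM and from 1225 and 1235 to 427 and 492 CPM. Galnt6, an enzyme that starts mucin glycans, fell by 1.66 on the log2 scale. Muc5ac, the surface mucin and named with Agr2 and Ern2 after its values were seen, went from 7460 and 7403 CPM to 4022 and 5274 CPM (−0.69, limma adjusted p = 0.00489), a call lost at the deposited scaling. Agr2, a disulfide isomerase of mucus cells, went from 507 and 447 CPM to 254 and 291 CPM (−0.81, limma adjusted p = 0.000346). Ern2, the stress sensor of mucus cells, was higher, at 60.2 and 62.9 CPM in vehicle and 83.5 and 90.5 CPM in HDT (0.50, limma adjusted p = 0.000810). Reads of Muc6 per read of Spdef were 9.45 and 9.52 in vehicle and 1.89 and 1.56 in HDT. Reads of Muc5ac per read of Foxq1 were 28.7 and 29.5 in vehicle and 17.8 and 20.4 in HDT.

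Parietal cell genes fell in the same libraries. Of the acid genes Atp4a, Atp4b and Hrh2 and the intrinsic factor gene Gif, which mouse chief cells express, 4 of 4 were called lower. Their median log2 fold change was −2.69. On the epithelium scaling 3 of 4 were called lower, with a median of −2.84, and without HDT replicate 2 the median was −2.54. Atp4b, the proton pump beta subunit, was at 4723 and 4974 CPM in vehicle and 563 and 494 CPM in HDT. Reads of Atp4b per read of Gata4 were 18.2 and 18.5 in vehicle and 2.25 and 1.94 in HDT. The gastric epithelium list, with 2 of 10 genes higher and 1 lower, had a geometric mean of 267 and 253 CPM in vehicle and 277 and 304 CPM in HDT. Epcam was among those higher (0.71, limma adjusted p = 0.000107), Spint1 was the gene lower (−0.38), and Cdh1 was not called. All 6 markers of cycling cells were higher, among them Mki67 (1.95), Top2a (2.20) and Bub1b (2.22), and their sum was 132 to 153 CPM in vehicle and 454 to 550.4 CPM in HDT. The part of these cells in the values of the members was not tested.

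At the deposited scaling the counts of these lists shifted upward, as did those of all tested genes, 62.8% higher and 5.46% lower. The foregut factors then had 13 of 16 higher and none lower, and the intestinal factors 7 of 9 and none. The intestinal markers had 11 of 25 higher and 3 lower, the lineage factors 4 of 14 and 2, and the mucous genes 9 of 18 and 4. On the epithelium scaling the intestinal markers had 2 higher and 9 lower and the mucous genes 1 and 10. Of all tested genes 9.35% were higher and 26.3% lower on that scaling. Leaving out a library moved the mucous genes to 2 higher and 5 lower without vehicle replicate 2, and to 3 and 5 without vehicle replicate 1. Without HDT replicate 1 the lineage factors had 1 higher and 5 lower. Without HDT replicate 2 they had 2 and 4, and the intestinal markers had 3 and 8.

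**Figure D4:**
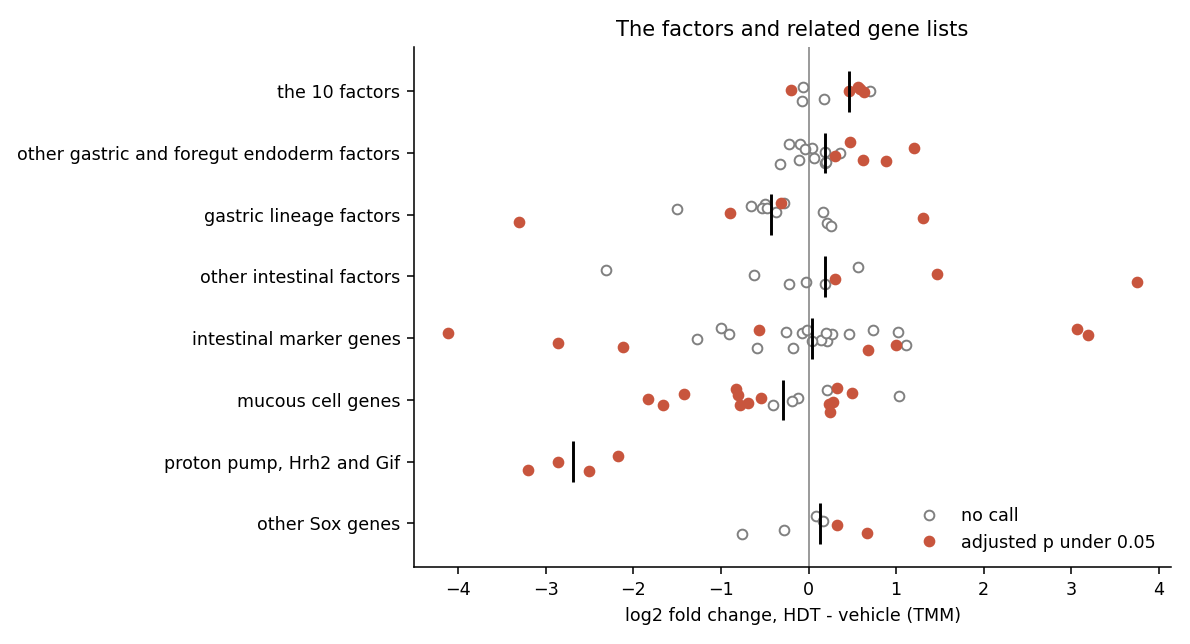
Log2 fold change of HDT over vehicle (TMM) of each tested gene in the members and the other lists, with filled points for a limma adjusted p under 0.05 and a bar at the median of each list. The members' median of 0.46 (0.18 without vehicle replicate 1) and the foregut factors' 0.19 (0.11 without vehicle replicate 2) lay above 0. The mucous genes' median of −0.30 lay below it. At the deposited scaling the mucous median was 0.22, beside 0.526 over all tested genes.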

How the data were processed

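Total RNA of 4 corpus samples was sequenced, 1 mouse per library. The submitters' processing notes name edgeR, featureCounts, Subread 2.0.0 and STAR 2.7.1a, and the builds GRCm38 and mm10. What annotation, strand setting and normalization the authors chose is not given in the sources used here. Values in the deposited table are a signal, normalized gene counts: whole reads times a constant per library (1.1381, 1.1200, 1.1192 and 1.1128 for vehicle 1 and 2 and HDT 1 and 2). After division, 100% of the values were whole within 0.01. Of 52125 rows, 23219 were 0 in every library.

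From these, genes were kept by filterByExpr on the recovered reads (18285 genes). Values divided by TMM effective library sizes were taken as log2(value + 1), where 1 corresponds to 0.891 reads, so a fold change of a low gene is understated. limma 3.58.1 (trend, robust) with group as the only term gave two-sided p-values adjusted by Benjamini-Hochberg over all tested genes, threshold 0.05. edgeR 4.0.16 and DESeq2 1.42.0 in R 4.3.3, run on the recovered reads, were alternatives. The script was tested on simulated data. Positions come from GENCODE M21 on GRCm38, with exons merged per gene for lengths. Replicates differed by more than sampling noise (chi-square per degree of freedom 14.96 in vehicle and 27.8 in HDT). Nothing shows that replicate numbers pair the mice.

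The members and lists were chosen with earlier results of these data known, and so support nothing by themselves. The naming rule takes all members, genes overlapping them, the 3 most changed called genes of each context list with at least 1 CPM, and of each marker list the first 2 genes and the 2 most changed called ones. Other names were chosen after their values were seen. Settings tried were other scalings, low-count filters, pseudocounts, tests, a replicate block and leaving out each library. No promoter window of Gata4, Gata6 or Foxq1 and no protein sequence was used here. Of the genes the naming rule selects, 2 are not reported here.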

Additional observations from a re-analysis of the deposited data

How the results depend on the processing

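Sox2, Sox21, Gata6 and Spdef kept their direction and call under all 17 other settings tried, the crossed block aside. Over all genes, 11483 were called higher and 998 lower at the deposited scaling, 1709 higher and 4817 lower on the epithelium scaling, and 2151 higher and 2338 lower in limma without trend and robust moderation. With DESeq2 the counts were 2626 higher and 2896 lower. Members called higher were 9 at the deposited scaling and 4 to 5 under the other settings. Members called lower, 1 with TMM, were 0 with upper-quartile scaling, the deposited scaling, no filter on low counts, DESeq2 on recovered reads, limma without trend and robust moderation, the replicate block, and without each library in turn (0 to 0), and 3 on the epithelium scaling. The cause was not tested. With the replicate block 2367 genes were higher and 2626 lower, and 4 members were higher and 0 lower. Same-numbered libraries did not deviate together (correlation −0.278), and a crossed replicate block, added after seeing the data, called 4202 higher and 4323 lower, with 5 and 1 members.

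Signs turned at the deposited scaling for Gata4 (0.47), Foxa2 (0.33), Foxq1 (0.45), A530084C06Rik (0.42), Foxa3 (0.42) and Sox10 (0.24). They also turned with single left-out libraries, where none of the positive values passed the test: Foxq1 ran from −0.16 to 0.024 (positive without HDT replicate 1) and Foxa3 from −0.22 to 0.023 (positive without HDT replicate 1, and 0.0021 without vehicle replicate 1). Pdx1 had no value under the filter of 1 CPM, and DESeq2 gave no adjusted p for Sox2ot. With 2 mice a group, the precision rests largely on spread borrowed across genes (prior degrees of freedom 5.87), and Cdx2 and Pdx1 are limited by their few reads.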

Other observations

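Among markers of other cell types, 3 of 5 mesothelial genes were lower in HDT with TMM. Msln and Krt19, named after their values were seen, were not called (log2 fold changes 0.099 and 0.030). At the deposited scaling 2 of these 5 genes were higher and 3 lower, beside 62.8% and 5.46% of all tested genes. The mesothelial gene Upk3b was at 6.02 and 3.80 CPM in vehicle and 0.972 and 1.25 CPM in HDT. Wt1, the mesothelial factor, had 62 and 23 reads in vehicle and 4 and 15 in HDT. Of 4 tested leukocyte genes 2 were higher, the macrophage gene Cd68 (log2 fold change 1.87) and Itgam (0.85), and Ptprc was not called. Of 6 endothelial genes the vascular receptor Kdr (−0.64) and Emcn (−0.39) were lower, and Pecam1 and Cdh5 were not called. At the deposited scaling 3 endothelial genes were instead higher and none was lower, beside the same shares of all tested genes, 62.8% and 5.46%.

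Of 6 tested endocrine genes 3 were lower, among them the somatostatin gene Sst (−0.92) and Syp (−0.83). Chgb was at 24.2 and 23.9 CPM in vehicle and 210.2 and 90.6 CPM in HDT, and was not called, nor was Chga. Without HDT replicate 2, 3 endocrine genes were higher and 3 lower. Of 4 tested tuft cell genes the channel gene Trpm5 was lower (−1.02), and Dclk1 was not called. Of 7 enteric neuron genes Ret was lower (−0.62), and Elavl4 was not called. With limma no smooth muscle gene of 7 was called, Myh11 and Actg2 included, under TMM, both other scalings described above or with any 1 library left out.

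Of 6 tested liver genes 3 were lower, Ttr (−1.91), Apoa2 (−1.18) and Alb (−0.96), and Ahsg was higher (1.44). Without vehicle replicate 2 or HDT replicate 1, 1 liver gene was lower. Of the antral genes Cym was lower (−0.78), a call lost without vehicle replicate 1 or HDT replicate 1. Of 6 tested pancreatic genes 1 was higher, Ptf1a, and Rbpjl was not called. Without vehicle replicate 1, 4 pancreatic genes were called lower, and without vehicle replicate 2, 2 were. The duodenal gene Fabp2 was not called.

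The endocrine progenitor factor Neurog3, named after its values were seen, had 2 and 4 reads in vehicle and 0 and 0 in HDT. With counts of this size no fold is given.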
